A study of Mus musculus with 2 samples.

Results

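The genes described here encode the proteasome, its regulators and the chaperones that assemble it. They were all listed genes whose symbol begins with Psm, a letter from a to g and a number, without the immunoproteasome genes Psmb8, Psmb9 and Psmb10. The rule took 46 of the 22711 listed genes and used no measured value. RNA was measured in 2 lines of immortal mouse embryonic fibroblasts (MEF), grown under the same conditions. Both are hybrids of the mouse strains C57BL/6N (B6) and PWK/PhJ (PWK), written PWK/PhJ X C57BL/6N for the line whose inactive X chromosome is the B6 copy (B6-Xi) and C57BL/6N X PWK/PhJ for the line whose inactive X is the PWK copy (PWK-Xi). No agent or other genetic change is named for either line. Each line gave 1 library, so no value below has a replicate, a standard deviation or a test, and a difference between the libraries cannot be told apart from a difference between the lines.

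As background, the proteasome degrades proteins marked with ubiquitin. Its barrel, the 20S core, is built from alpha rings that gate the entrance and beta rings that hold the proteolytic sites. The 19S regulator caps the barrel, where non-ATPase subunits bind and remove ubiquitin chains and a ring of ATPases unfolds the substrate. Dedicated chaperones build both particles, and other activators can replace the 19S regulator. Fibroblasts in culture use mainly the standard core, and interferon makes cells exchange its catalytic subunits for those of the immunoproteasome.

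The values were FPKM (fragments normalized to gene length and to library size) of each allele, and a level is the sum of both alleles. Over all genes they summed to 285397 FPKM (B6-Xi) and 256196 FPKM (PWK-Xi), and 10127 and 12907 genes were above 0. Read depth was unknown. Of 10 fibroblast markers 8 were above 0 in both lines; Vim was listed at 0 in both and Lum in B6-Xi. The summed level of 5 epithelial, 4 endothelial and 5 immune markers was at most 3.55 FPKM per list and line. The 5 pluripotency markers Pou5f1, Nanog, Sox2, Zfp42 and Dppa5a were all listed at 0 in B6-Xi, and summed to 152.6 FPKM in PWK-Xi with only Zfp42 at 0. Most of that was Dppa5a, with 134.9 FPKM of which 99.8% came from B6. Pou5f1 had 15.1 FPKM in PWK-Xi, 100% of it from B6.

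Most proteasome genes were abundant, and their order was close to the same in both lines. Of the 46, 38 were above 0 in both lines, 7 were listed at 0 in both (15.2%, against 42.2% of all listed genes) and Psme4 was listed at 0 in B6-Xi alone. The median level of the 38 was 63.1 FPKM (B6-Xi) and 52.9 FPKM (PWK-Xi), against 10.3 and 12.1 FPKM over all genes that were above 0 in both and reached 5 FPKM in either. All 46 together held 1.17% and 1.33% of the summed FPKM. Over the 38 genes the log2 levels of the lines had a Pearson correlation of 0.93, and over all 5241 such genes 0.82; the points share the 2 libraries and their scaling, and the value is a description.

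The 7 genes listed at 0 in both lines were Psma2, Psmb2, Psmd13, Psme1, Psme2, Psma8 and Psmb11. Psma2 and Psmb2 encode core subunits and Psmd13 a lid subunit that every standard proteasome holds, so a 0 here is not read as absence of the transcript. Psme1 and Psme2 encode the interferon-induced activator. Psma8 is known from the testis and Psmb11 from the thymic cortex. For Psme1, Psme2, Psma8 and Psmb11 too, a 0 is not read as absence of the transcript. These 7 genes enter none of the counts of levels, differences and shares that follow.

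The beta ring of the core had the highest median level. Psmb6, the caspase-like catalytic subunit, had a level of 317 FPKM (B6-Xi) and 279 FPKM (PWK-Xi), and pairs of values below keep this order. Psmb5, the chymotrypsin-like subunit, had 255 and 187 FPKM. Psmb7, the trypsin-like subunit, had 81.7 and 132 FPKM and was the lowest measured gene of this ring in both lines. Among the structural beta subunits Psmb1 had 298 and 254 FPKM, Psmb3 had 289 and 248 FPKM, and Psmb4 had 206 and 159.9 FPKM. So 5 of the 6 measured beta genes were lower in PWK-Xi, and Psmb7 was higher.

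In the alpha ring all 6 measured genes were higher in PWK-Xi before any scaling between the libraries. Psma7 had 234 and 451 FPKM, and in PWK-Xi it was the most abundant gene of all 46. Psma3 had 71.3 and 165 FPKM. Psma6 (114 and 148 FPKM), Psma1 (89.6 and 99.5 FPKM), Psma4 (101.9 and 104 FPKM) and Psma5 (86.9 and 98.5 FPKM) stayed within 1.5-fold. The highest alpha gene exceeded the lowest 3.28-fold in B6-Xi and 4.58-fold in PWK-Xi, although each encodes a subunit present once in every ring.

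The 19S regulator had a lower median level than the core. The median was 71.6 and 54.7 FPKM over its 6 ATPase genes, and 51.9 and 42.0 FPKM over 10 non-ATPase genes, against 159.7 and 162.6 FPKM over the 12 measured core genes. Psmc5 had 110.3 and 46.6 FPKM, going from the highest ATPase gene in B6-Xi to nearly the lowest in PWK-Xi. Psmc3 had 97.7 and 55.6 FPKM, Psmc4 had 72.3 and 63.0 FPKM, and Psmc6 had 70.8 and 80.5 FPKM. Psmc2 had 51.7 and 53.9 FPKM, and Psmc1 had 32.6 and 46.6 FPKM. Over the ATPases, the ratio of highest to lowest was 3.38 (B6-Xi) and 1.73 (PWK-Xi).

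Of the non-ATPase genes, the scaffold genes Psmd1 and Psmd2 had 43.0 and 33.1 FPKM, and 38.2 and 41.6 FPKM. Psmd4, a receptor for ubiquitin chains, had 85.3 and 127.9 FPKM and was the most abundant of them in PWK-Xi. Psmd14, the enzyme that cuts ubiquitin off the substrate, had 47.1 and 41.1 FPKM, while its partner Psmd7 had 101.1 and 54.8 FPKM. The other lid genes were Psmd8 (44.7 and 84.7 FPKM), Psmd6 (64.6 and 52.0 FPKM), Psmd11 (61.6 and 42.4 FPKM), Psmd12 (56.8 and 41.4 FPKM) and Psmd3 (33.0 and 25.8 FPKM). Only Psmd2, Psmd4 and Psmd8 of these 10 were higher in PWK-Xi.

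Chaperones and alternative activators had lower median levels than the core and the regulator, though single genes overlapped. The chaperones of the ATPase ring, Psmd10, Psmd5 and Psmd9, had 23.6 and 27.2, 18.1 and 23.2, and 11.01 and 8.21 FPKM. Among the chaperones of the core, Psmg4 had 43.8 and 20.3 FPKM, and Psmg1, Psmg2 and Psmg3 lay between 16.1 and 28.3 FPKM in both lines. The nuclear activator gene Psme3 had 20.5 and 13.2 FPKM. Psme4, which encodes another nuclear activator, was listed at 0 and had 13.9 FPKM, so no fold is given. The same pattern, 0 in B6-Xi and 5 FPKM or more in PWK-Xi, held for 4.76% of the 5065 genes that reached 5 FPKM in PWK-Xi. Psmf1, a gene for a proteasome-binding inhibitor, had 3.29 and 5.55 FPKM, around the minimum of 5 FPKM used below. Psmc3ip, which had 9.26 and 11.3 FPKM, matched the rule by its symbol only: its product acts in meiotic recombination and is no proteasome subunit.

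**Figure D1:**
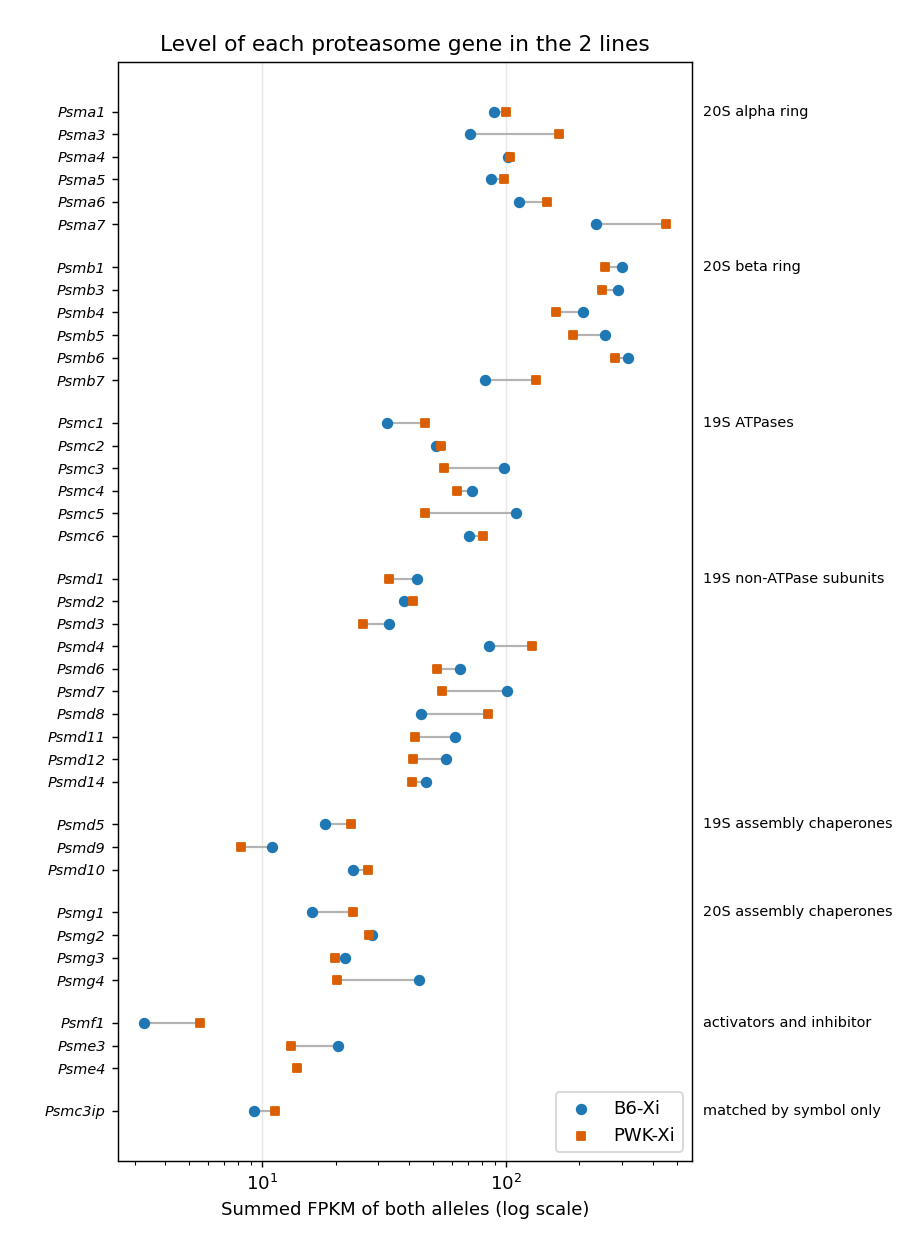
Level of each proteasome gene above 0 in at least 1 line, as the FPKM of both alleles summed (log axis), in B6-Xi (circles) and PWK-Xi (squares), 1 library each; a grey line joins the values of a gene. By their medians core genes lie highest, up to 451 FPKM for Psma7 in PWK-Xi. Chaperones, activators and the inhibitor lie below the regulator by their medians, and single genes of these parts overlap. Psme4 has no circle because it is listed at 0 in B6-Xi.

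Promoter sequences were compared to see what the genes share beyond their names. They came from RefSeq (build GRCm38.p6) and reach from 250 bases before to 50 bases after a gene's start. An entry was matched by symbol for 38 of the 46 genes. The stretches below show a known element of proteasome promoters, TGACNNNGC, a motif of the factor encoded by Nfe2l1, in 2 catalytic subunit genes, and the ETS-type motif CCGGAAG in 5 genes of the regulator. All are read 5′ to 3′ on the gene's strand, all lie before the start, and capitals mark the motif or its reverse complement.
Psmb5 (chr14:54618004-54618072, minus strand): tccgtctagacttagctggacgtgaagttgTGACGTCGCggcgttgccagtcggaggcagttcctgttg
Psmb6 (chr11:70525318-70525356, plus strand): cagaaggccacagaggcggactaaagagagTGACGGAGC
Psmc1 (chr12:100110143-100110201, plus strand): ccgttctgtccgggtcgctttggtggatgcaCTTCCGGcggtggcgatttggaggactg
Psmc6 (chr14:45329693-45329761, plus strand): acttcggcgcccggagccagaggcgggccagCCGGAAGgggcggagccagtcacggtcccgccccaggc
Psmd12 (chr11:107479480-107479527, plus strand): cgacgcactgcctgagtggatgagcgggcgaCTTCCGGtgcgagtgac
Psmd2 (chr16:20651595-20651651, plus strand): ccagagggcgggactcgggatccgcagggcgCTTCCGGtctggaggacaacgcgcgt
Psmd4 (chr3:95042702-95042770, minus strand): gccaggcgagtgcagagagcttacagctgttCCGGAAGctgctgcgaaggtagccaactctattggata

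Both strands of the full 300 bases were searched for 8 motifs. CCGGAAG was in 14 of the 38 promoters (36.8%), against 9.12% of all 27025 promoters and 21.4% of the 4212 promoters of genes that reached 5 FPKM in either. TGACNNNGC was in 6 (15.8%), against 12.5% and 15.7%. The 6 were those of Psmb5, Psmb6, Psmc6, Psmd9, Psmd12 and Psme4. CCAAT was in 14 (36.8%, against 37.9% and 40.2%) and GGGCGG in 22 (57.9%, against 35.9% and 69.2%). CACGTG and TATAAA were each in 3 (7.89%), TGAGTCA was in 1 (2.63%) and TGACGTCA in none; the shares in all promoters were 7.24%, 14.2%, 5.17% and 1.88%, and in the 4212 they were 11.8%, 7.43%, 3.25% and 3.96%. By their letters, TGACNNNGC can overlap the reverse complement of TGAGTCA. The genes with a TGACNNNGC match included members higher and lower in PWK-Xi. A match describes letters in this window and not binding.

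The next comparison asked how far total expression of these genes differed between the lines. Few differed by 2-fold. On the scale log2((PWK-Xi + 1)/(B6-Xi + 1)), 39 members reached 5 FPKM in either. Of these, 2 were at least 2-fold higher in PWK-Xi, Psma3 and Psme4 (5.13%, against 17.8% of 5490 genes), and 2 were at least 2-fold lower, Psmc5 and Psmg4 (5.13%, against 5.83%). Psme4 passed the minimum only through PWK-Xi and so had to differ. At 1.5-fold, 6 were higher (15.4%, against 32.3%), adding Psma7, Psmb7, Psmd8 and Psmf1, and 5 were lower (12.8%, against 13.4%), adding Psmc3, Psmd7 and Psme3. Psmf1 also passed the minimum only through PWK-Xi. With 5 FPKM required in both lines, 4 of 37 were at least 1.5-fold higher (10.8%, against 21.5%), Psma3, Psma7, Psmb7 and Psmd8.

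The libraries differed in scale. The median log2 difference of the 5241 genes above 0 in both lines was 0.19, and the log2 differences that follow are relative to it. The median of the 38 members was then -0.28, and 26 of them lay below the median of all genes (68.4%, against 50% by construction). On this scale Psma3 alone was at least 2-fold higher (2.63%, against 10.1% of all genes), with 1.01, and Psmc5 (-1.42), Psmg4 (-1.27) and Psmd7 (-1.07) were at least 2-fold lower (7.89%, against 8.93%). Psmc3 lay just inside, at -0.997. The middle 50% of the members spanned 0.69 log2 units, and that of all genes 0.98. The members also had higher levels than all genes. Their median absolute log2 difference was 0.41, against 0.46 over 4855 genes whose mean level lay within the members' range (4.42 to 342 FPKM). The part of level in the narrower spread, the smaller counts and the higher correlation of the members was not tested.

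Parts of the particle differed in their medians. The alpha ring had a median of 0.08 and the beta ring of -0.42. The ATPases had -0.26 and the non-ATPase subunits -0.52, with 13 of the 16 regulator genes below the median of all genes. The chaperones of the ATPase ring had 0.00 and those of the core -0.28. The sign of the alpha ring rests on the scale, since 3 of its 6 genes were below the median of all genes and none was lower in FPKM. Summed over its measured genes, the alpha ring had 697 and 1066 FPKM, the beta ring 1447 and 1260 FPKM, and the 19S regulator 1011 and 891 FPKM. Psma3, Psma6 and Psmc1 are on chromosome 12, whose genes had a median of 0.77. Psmb3, Psmb6, Psmc5, Psmd3, Psmd11 and Psmd12 are on chromosome 11, whose genes had a median of -0.45. The part of the chromosomes in the differences between rings and particles was not tested.

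**Figure D2:**
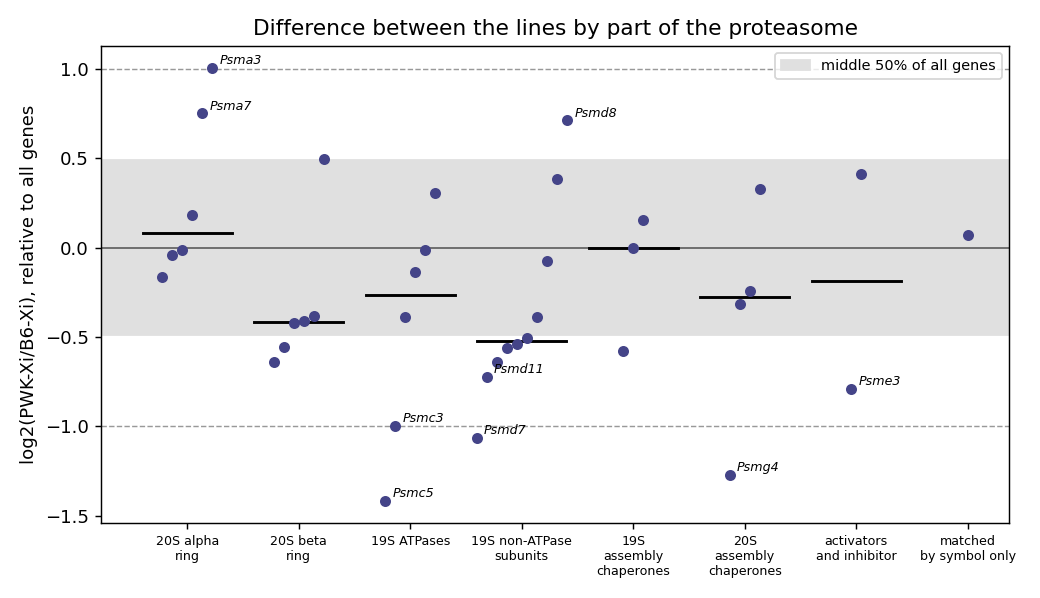
Difference between the lines, log2((PWK-Xi + 1)/(B6-Xi + 1)) relative to the median of all genes, for the 38 proteasome genes above 0 in both lines, by part of the particle; each point is a gene, black bars are medians, the grey band holds the middle 50% of all genes and dashed lines mark 2-fold. Psma3 lies at the upper line and Psmc5, Psmg4 and Psmd7 lie below the lower one.

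Next, the share of the B6 allele was compared, which in a hybrid with a copy of each chromosome from both strains is near 50% for a gene used equally from both. It was read for the 37 members that reached 5 FPKM in both. Their median was 47.6% (B6-Xi) and 54.4% (PWK-Xi), where all 3960 such genes had 50.0% and 52.8%. Under 40% in B6-Xi were 13 (35.1%, against 28.5%), and over 60% were 5 (13.5%, against 24.7%). In PWK-Xi 3 were under 40% (8.11%, against 13.3%) and 11 over 60% (29.7%, against 27.3%). The share differed by at least 20 percentage points between the lines for 15 of the 37 (40.5%, against 29.1%). Over all measured FPKM of the 46 genes, 44.5% (B6-Xi) and 59.96% (PWK-Xi) came from B6, against 49.3% and 53.9% over all genes. Abundant genes weigh most in this pooled share, and Psma7 alone gave 360 FPKM from B6 in PWK-Xi. Members with no B6 FPKM in B6-Xi lower the value there. Taken by allele, the median log2 difference of the 38 members without any shift was 0.21 (B6 allele) and -0.27 (PWK allele), against 0.26 and 0.06 over all genes. The pluripotency markers given above were also higher in PWK-Xi and came from B6; their part in these shares was not tested.

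In B6-Xi, 6 members had a B6 share of at most 10%, all of them exactly 0% (16.2%, against 9.37%). Of these Psma3, Psma6 and Psmc1 are the 3 members on chromosome 12, whose 234 genes at 1 FPKM or more in both had medians of 0% (B6-Xi) and 52.5% (PWK-Xi). In PWK-Xi the shares of Psma3, Psma6 and Psmc1 were 64.2%, 53.5% and 57.3%. Psmd10, the only member on the X chromosome, had 0% in B6-Xi and 98.7% in PWK-Xi (at least 90% in 4.14% of all genes there), the active X in both. So 2 alpha subunits, 1 ATPase and 1 chaperone were read from the PWK allele alone in B6-Xi.

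The 3 members on chromosome 12 had a higher level of the PWK allele in B6-Xi, where their B6 allele was at 0. For Psma3 the PWK allele had 71.3 FPKM (B6-Xi) and 59.2 FPKM (PWK-Xi). Psma6 had 114 and 68.6 FPKM from PWK, and Psmc1 had 32.6 and 19.9 FPKM. These are ratios of 1.204, 1.66 and 1.64. With the B6 allele of PWK-Xi added (106, 78.9 and 26.7 FPKM), the total was still higher in PWK-Xi for all 3, by 2.32-, 1.30- and 1.43-fold. Over 160 genes of chromosome 12 above 0 in both lines, the median log2 difference of the total was 0.77 relative to all genes, and the members had 1.01, 0.18 and 0.31. For the PWK allele of the same 160 genes the median log2 difference, without any shift, was 0.10, so the chromosome's genes did not share the members' direction at the median.

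Psmd1 and Psmd4 were also at 0% in B6-Xi, apart from the genes around them. Psmd1, on chromosome 1, had 43.0 FPKM from PWK and none from B6 in B6-Xi, against 20.6 FPKM from B6 and 12.5 FPKM from PWK in PWK-Xi, a share of 62.2%. Psmd4, on chromosome 3, had 85.3 FPKM from PWK and none from B6 in B6-Xi, against 100.5 and 27.4 FPKM in PWK-Xi, a share of 78.6%. The 10 genes on either side of each, taken at 1 FPKM or more in both lines, had median B6 shares in B6-Xi of 52.2% around Psmd1 and 49.4% around Psmd4. Psmf1, at 3.29 FPKM in B6-Xi and so under the minimum, had 0% there against 59.6% around it.

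**Figure D3:**
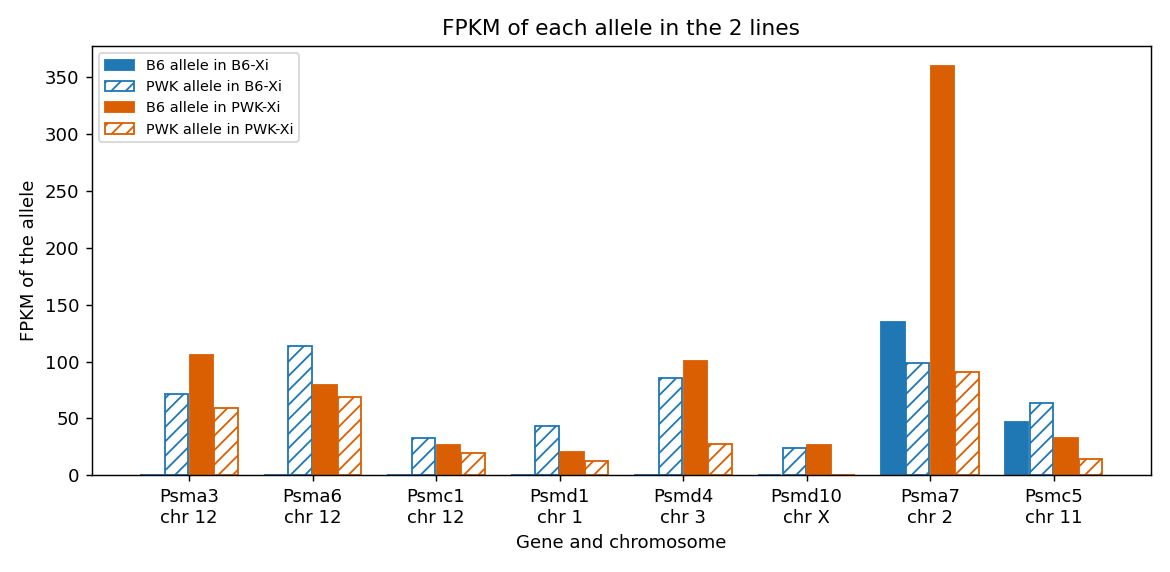
FPKM of the B6 allele (filled bars) and the PWK allele (hatched bars) in B6-Xi and PWK-Xi for 8 proteasome genes, 1 library per line and so no error bars. Psma3, Psma6, Psmc1, Psmd1, Psmd4 and Psmd10 have no B6 bar in B6-Xi; Psma7 in PWK-Xi has 360 FPKM from B6 against 91.0 FPKM from PWK.

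The shares of most members lay close to those of their neighbours, counted over all 37 and so with the members on chromosomes 12 and X and with Psmd1 and Psmd4. Within 10 points of the median of the neighbouring genes were 29 of the 37 members in B6-Xi (78.4%, against 59.2% of all genes) and 27 in PWK-Xi (73.0%, against 70.7%). More than 20 points away were 3 in B6-Xi (8.11%, against 17.0%), Psmd1, Psmd4 and Psmd12, and 4 in PWK-Xi (10.8%, against 8.82%), Psma7, Psmc5, Psmd3 and Psmd4. Over the 37 genes the change in share between the lines and that of the neighbours had a Pearson correlation of 0.81, and over 3957 genes 0.76, as a description over genes of the same libraries.

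Chromosome 11 held the most members. Its genes had median B6 shares of 40.8% (B6-Xi) and 54.0% (PWK-Xi), and its median log2 difference -0.45 relative to all genes. Of its 9 members 8 were above 0 in both lines, and all of these had a higher B6 share in PWK-Xi. Those of Psmd12, Psmd11 and Psme3 were 17.9%, 30.7% and 35.0% (B6-Xi) against 42.5%, 50.9% and 53.1% (PWK-Xi). Psmd3 went from 38.5% to 81.0%, Psmc5 from 42.1% to 69.9%, Psmb6 from 40.6% to 63.6%, and Psmb3 from 47.1% to 65.1%. For Psmc5 both alleles were lower in PWK-Xi, with 46.4 and 32.6 FPKM from B6 and 63.9 and 14.0 FPKM from PWK. For Psmd3 the B6 allele was higher (12.7 and 20.9 FPKM) and the PWK allele lower (20.3 and 4.92 FPKM). The 7 proteasome genes among the 8 had log2 differences of -1.42 to -0.38, and Psmc3ip had 0.07.

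Psma7, on chromosome 2, differed in 1 allele. Its PWK allele had 98.8 and 91.0 FPKM, while its B6 allele had 134.8 and 360 FPKM, 2.67-fold higher. Its share was 57.7% and 79.8%, and the neighbouring genes had 58.3% and 53.4%. Psmd8, on chromosome 7, was higher in PWK-Xi from both alleles, with the larger difference in the PWK allele. Its PWK allele had 11.2 and 38.5 FPKM and its B6 allele 33.6 and 46.2 FPKM, with shares of 75% and 54.6%. Psmb7 had 51.0 and 67.3 FPKM from B6 and 30.6 and 64.9 FPKM from PWK.

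On chromosome 5, where genes leaned to PWK in PWK-Xi (a median B6 share of 36.5%), Psmc2, Psmd9 and Psmg3 had 37.0%, 34.7% and 44.2% there and 48.6%, 53.1% and 63.2% in B6-Xi. On chromosome 16, which leaned to PWK in both lines (33.3% and 41.1%), Psmd2 had 40% and 35.4%, and Psmg1 25% and 58.4%. Within 6 points of 50% in both lines, a limit chosen after the values were seen, were 9 of the 37 (24.3%, against 15.3%). They were Psmb1 (48.8% and 53.0%), Psmd7 (49.1% and 53.1%), Psmc4 (53.75% and 54.4%), Psmc6 (53.2% and 47.2%), Psma4 (55.9% and 49.8%), Psma1 (46.0% and 51.1%), Psmd6 (55.4% and 50.6%), Psmb5 (55.6% and 46.1%) and Psmd14 (53.3% and 49.5%), on chromosomes 17, 8, 7, 14, 9, 7, 14, 14 and 2. Psmd14 lay among genes with a median of 66.1% in B6-Xi.

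**Figure D4:**
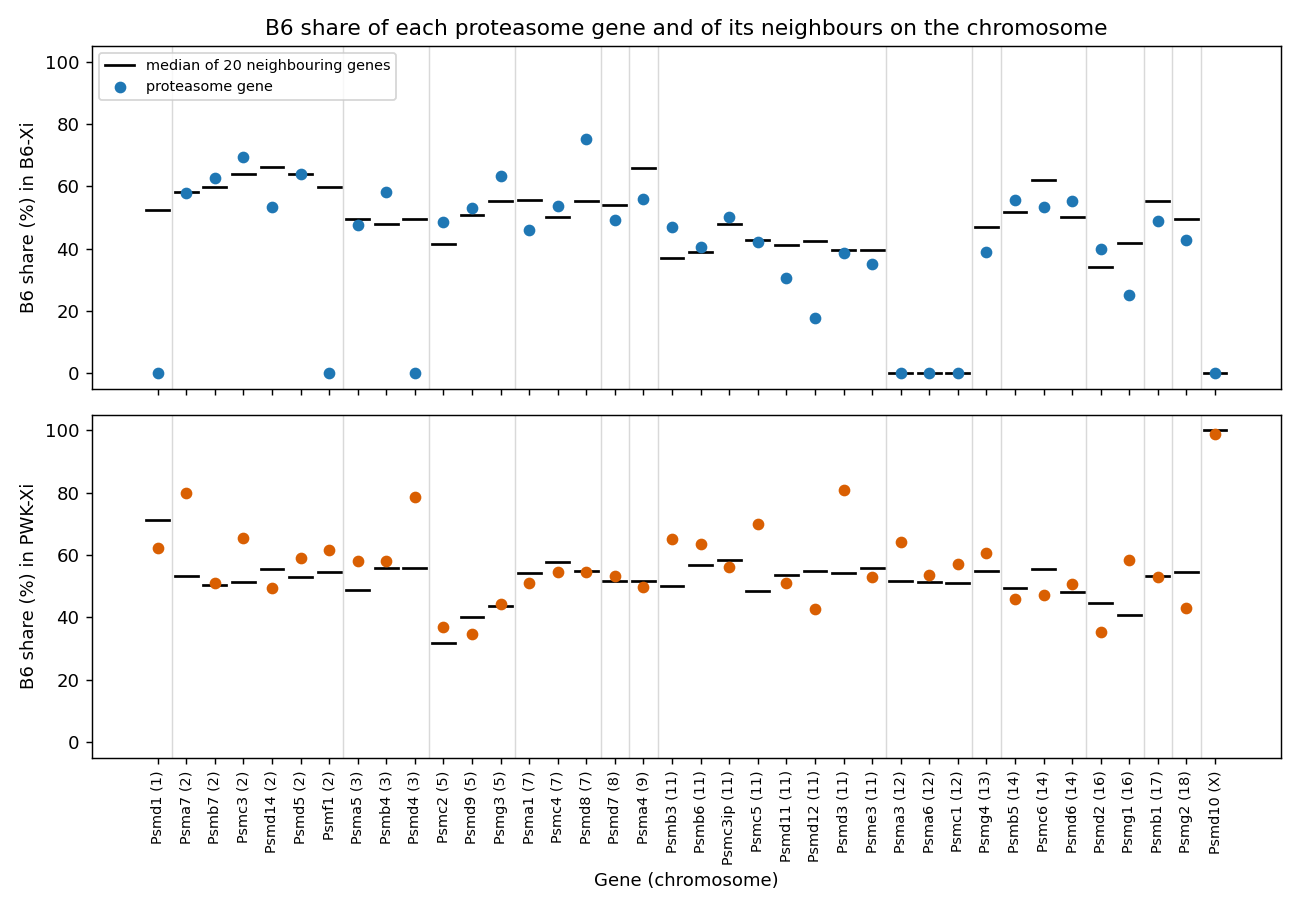
B6 share (percent of both alleles) of each proteasome gene above 0 in both lines (points) and the median of up to 20 neighbouring genes (black bars), in B6-Xi (top) and PWK-Xi (bottom), in order of chromosome. Psma3, Psma6, Psmc1 and Psmd10 lie with their neighbours at 0% in B6-Xi, while Psmd1, Psmd4 and Psmf1 lie at 0% apart from theirs.

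Several shares have limits. Psmg1, Psmd8, Psmd2, Psmb7, Psmg2 and Psmc3ip had B6 shares in B6-Xi equal, within 0.001 points, to a ratio with a denominator of at most 10 (16.2% of the 37, against 19.8% of all genes), and no member did in PWK-Xi (against 3.38%), so shares in B6-Xi move in coarser steps. A copy of at least 95% identity over at least 200 bases in a gene elsewhere in the genome was found in the GENCODE transcripts for 11 members. They were Psma2, Psma3, Psma4, Psma5, Psmb3, Psmb5, Psmc1, Psmd2, Psmd11, Psme1 and Psme2, most with processed pseudogenes, and their values are uncertain where reads could be placed on either copy. The closest for Psma3 was Gm13835, identical over 685 bases. Psmd1, Psmd4, Psma6 and Psma7 had none. Psmb7 overlaps Nek6 on the other strand, which had 0.932 and 24.3 FPKM; no label says whether the library kept strand, so reads of the pair cannot be told apart, nor those of Psmc3 and Slc39a13 or of Psmc3ip and Mlx.

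The immunoproteasome genes, left out by the rule, differed more than their standard counterparts. Psmb10 had 46.0 and 12.05 FPKM, which is 36.0% and 8.36% of its sum with Psmb7, and Psmb8 made 9.67% and 1.25% of its sum with Psmb5. Psmb9 was at 1.32 and 0.441 FPKM, under the minimum in both lines, and made 0.413% and 0.158% of its sum with Psmb6. At least 2-fold lower in PWK-Xi were the 2 that reached 5 FPKM in either, Psmb8 and Psmb10, against 5.83% of all genes. The percentage of Psmb10 also moved with Psmb7, which was higher in PWK-Xi and whose reads cannot be told apart from those of Nek6.

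Other genes of the pathway were read from a list of 28, of which 27 were listed. Among the 21 that reached 5 FPKM in either, AI314180 and Rad23b (2 genes) were 2-fold or more higher in PWK-Xi, against 17.8% of all genes. Both were listed at 0 in B6-Xi, passed the minimum only through PWK-Xi and so had to differ. Of the 19 genes above 0 in both lines, 0 were 2-fold higher. At least 2-fold lower was 1 gene, against 5.83% of all genes. It was Nploc4, a cofactor of the unfolding ATPase Vcp, at 18.0 and 7.66 FPKM. The median log2 difference of the 19 above 0 in both lines was 0.00 relative to all genes. Shfm1, a small lid subunit gene, was the most abundant at 422.4 and 422.1 FPKM. Pomp, the maturation factor of the core, had 250.1 and 273 FPKM. The 19S ubiquitin receptor gene Adrm1 had 51.8 and 38.1 FPKM, Txnl1 27.3 and 34.9 FPKM and Vcp 26.2 and 30.5 FPKM. Nfe2l1, the transcription factor that raises proteasome genes when the proteasome is inhibited, had 7.65 and 7.05 FPKM. Vcp, on chromosome 4, was read from PWK alone in B6-Xi (0% B6, against 62.9% in PWK-Xi), and the X-linked ubiquitin-activating enzyme gene Uba1 had 0% and 99.8%. Ubb and Ddi2 were listed at 0 in both lines.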

How the data were processed

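Polyadenylated RNA of 2 fibroblast lines was captured with oligo-dT and sequenced after Smart-seq2 (per the labels' protocols), with 1 library per line; groups came from the sample titles. The authors deposited FPKM of 22711 genes per allele (per the file headers). Tools named by the submitters' processing notes are StringTie 2.1.1, HISAT2 2.2.0 and Trim Galore 0.6.4, with the build mm9; the rule for giving a read to a strain is not stated there. FPKM are no counts, so depth is unknown, no interval is given, and a value of 0 can be a failed estimate.

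Levels are sums of both alleles and shares carry no pseudocount. Differences used a pseudocount of 1, which understates the change of low genes, and genes that reached 5 FPKM in either line; shares used 5 FPKM in both. With 1 library per line no test was made. The members and gene lists were chosen with earlier results of these data known. Named were all measured members, and listed pathway genes that were 2-fold different or among the 5 most abundant; Nfe2l1, Uba1 and the shares of Vcp were added after their values were seen, as were the neighbour windows, the printed promoters and the motifs. Chromosomes and gene order came from GENCODE M21 and RefSeq (GRCm38.p6) by symbol (all 46 members matched), and no coordinates of it were set against mm9. Neighbours were the 10 genes on each side with at least 1 FPKM in both lines. Copies were searched with BLAST 2.17.0. Paaf1 was not analysed here. Alternatives changed the pseudocount, minimum, scaling, chromosomes, borders and neighbour number. Computations ran in Python 3.11.15 with pandas 2.3.3, numpy 2.4.6 and matplotlib 3.10.9, and the calculations were tested on simulated data.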

Additional observations from a re-analysis of the deposited data

How the results depend on the processing

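No paired analysis was possible because each line has 1 library. The 2 members at least 2-fold higher became 1 with a minimum of 20 FPKM in either line, with 5 FPKM in both, or with genes above 0 in both lines only, and 0 without the 9 autosomes whose median B6 share was over 5 points from the autosomal median in either line. The 2 that were at least 2-fold lower became 1 without those autosomes, and 3 both relative to the median and when rescaled without the 100 most abundant genes of each library. The members' median log2 difference, -0.085 without any shift, was -0.088 with a pseudocount of 0.1, -0.12 at 20 FPKM, without the 9 autosomes, without Psmc3ip or at 5 FPKM in both lines, -0.28 relative to all genes and -0.26 when rescaled. At 1.5-fold the 5 lower members became 8 relative to all genes, 9 when rescaled and 2 without the 9 autosomes, and the 6 higher members became 4, 4 and 1. The median B6 share in B6-Xi was 47.4% at 1 FPKM, 47.1% at 20 FPKM, 51.1% without the 9 autosomes and 48.8% without members that have a copy elsewhere; in PWK-Xi it was 54.5% at 1 FPKM and 52.0% without the 9 autosomes. Without those autosomes 2 members were under 40% and 1 over 60% in B6-Xi, with 0 and 2 for PWK-Xi; at 20 FPKM 3 were over 60% in B6-Xi. By construction this alternative leaves fewer members, 12 of 37. The median log2 difference of the B6 allele was 0.21, and 0.22 with a pseudocount of 0.1, and that of the PWK allele -0.27 and -0.28. Other neighbour numbers (5 or 20 on each side, chosen after seeing the data) gave 4 members over 20 points away in B6-Xi, against 4 (5 genes) and 3 (20 genes) in PWK-Xi. Other causes were not tested. Unknown depth limits all shares, most in B6-Xi.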
